A study of Homo sapiens with 12 samples.

Results

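The genes described here were the immediate-early genes FOS, FOSL1, JUN, JUNB, JUND, EGR1, IER2, IER3 and KLF6, together with MYC. They were listed by name, and all 10 were among the 35638 genes listed in the tables analysed. LAST-seq and CEL-seq2 count unique molecular identifiers (UMIs), random tags that each mark 1 captured RNA molecule. FOS, JUN and IER2 were detected in each of the 14 sets of wells, with eHAP1 split into 2 batches per genotype, whereas MYC was not detected in SCC4 KO eHAP1 cells and FOSL1 was not detected in 3 of the HEK293T sets.

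Immediate-early genes are switched on within minutes of a growth signal, a stress or a mechanical disturbance, without new protein synthesis, and their RNA is short-lived. Signals through the MAP kinase cascade phosphorylate factors that already sit at the promoter, such as serum response factor and its ternary complex partners. FOS and JUN proteins pair through leucine zippers to form AP-1, and MYC pairs with MAX to bind E-boxes at genes of ribosome production and growth. These genes are among the classic examples of transcription in bursts, where a promoter switches between an active and an inactive state.

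The study introduced LAST-seq, in which T7 RNA polymerase amplifies the original single-stranded RNA, and set it against CEL-seq2 and SMART-seq in the human embryonic kidney line HEK293T. LAST-seq and CEL-seq2 count UMIs near the 3′ end of transcripts, and SMART-seq V4 gives reads along the transcript with no UMIs. HEK293T cells were grown in medium with serum, dissociated with trypsin and sorted alive, and no genotype change or treatment was named for them. Single-cell lysate and 15 pg aliquots of total RNA of the line were profiled as well, and how the lysate was prepared from cells is not given in the sources used here.

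LAST-seq was then applied to eHAP1, a haploid human line, wild type (WT) or with SCC4 knocked out (SCC4 KO). SCC4, listed as MAU2, encodes a subunit of the loader that places cohesin on chromatin. SCC4 KO cells came from clonal expansion after Cas9 electroporation, so a difference between the genotypes cannot be told apart from one between clones. Cells of both genotypes were kept with 10-Deacetylbaccatin-III, dissociated with trypsin, stained live with Hoechst33342 and Zombie Green, and sorted in G1 phase. With 1 sample per genotype, cells are not replicates and no test between genotypes was made.

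The LAST-seq and CEL-seq2 libraries of HEK293T held 10 wells and between 798047 and 1554129 UMIs each. The 4 eHAP1 sets held 73 and 75 WT cells and 77 and 76 SCC4 KO cells, with between 6434247 and 12301326 UMIs. Mitochondrially encoded genes took a median of 20.8% to 21.3% of the UMIs of an eHAP1 cell in each batch and genotype, against 7.48% and 9.03% in the CEL-seq2 single cells, 14.3% and 16.3% in the LAST-seq single cells and 19.2% in the LAST-seq lysate. Of the 4 kidney and neuronal markers used to check HEK293T, PAX2, LHX1, NEFM and NEFL, between 1 and 3 were detected in each HEK293T library and between 2 and 4 in each eHAP1 batch. By level WT eHAP1 cells differed, with 0 UMIs of NEFL and 307 of PAX2 against 57 and 2 in LAST-seq single HEK293T cells. PAX2 was thus the higher in eHAP1, and NEFL was higher in SCC4 KO than in WT cells by 8.90 on the log2 scale. These markers therefore do not tell the lines apart. The same 6-base barcodes were used in several libraries, 70 of them in both WT batches and 75 in both SCC4 KO batches. Across genes, the deviations of WT cells that shared a barcode had a median Pearson's r of 0.0122, against 0.000137 over all pairs of cells between the batches. In SCC4 KO cells the medians were 0.0115 and -0.000232. Of 496 pairs of SMART-seq wells, 9 were near-identical, among them each of the 6 single cells with a well of lysate replicate 2. SMART-seq lysate values are therefore given with and without those 6 wells. The remaining pairs lay within lysate replicate 1, and their wells were kept in both values.

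Promoter sequences of 7 members were given by RefSeq on GRCh38.p14, from 250 bases before to 50 bases after the start. They are described because serum response factor binds CArG boxes, a run of A and T bases between CC and GG, and AP-1 and CREB-related dimers bind TGANTCA, TGACGTCA and the variant TGACATCA. Both strands were searched. EGR1 and JUN, the members called between the assays at an adjusted p under 0.05, are shown with matches in capitals. The EGR1 promoter at chr5:138465229-138465528 on the plus strand held a pair of CArG boxes, which start 105 and 83 bases before the start site. The JUN promoter at chr1:58783998-58784297 on the minus strand held TGACATCA 67 bases before the start site.
EGR1: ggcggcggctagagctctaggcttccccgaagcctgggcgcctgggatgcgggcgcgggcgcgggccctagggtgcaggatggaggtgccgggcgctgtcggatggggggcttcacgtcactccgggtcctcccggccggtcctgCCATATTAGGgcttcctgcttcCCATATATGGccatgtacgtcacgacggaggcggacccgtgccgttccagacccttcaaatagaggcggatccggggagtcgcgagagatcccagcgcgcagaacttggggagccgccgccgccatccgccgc
JUN: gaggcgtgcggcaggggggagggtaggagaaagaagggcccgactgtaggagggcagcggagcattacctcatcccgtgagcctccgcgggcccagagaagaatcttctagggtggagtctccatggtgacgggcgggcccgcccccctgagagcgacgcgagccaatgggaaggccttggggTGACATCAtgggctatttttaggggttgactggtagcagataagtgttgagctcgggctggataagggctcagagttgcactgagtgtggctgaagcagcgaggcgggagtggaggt

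A CArG box was found in 1.29% of 35116 promoters of the same length, and TGACATCA in 2.61%. JUND held TGACGTCA at 200 bases before its start, a motif of 1.85% of promoters, and KLF6 held TGACATCA at 172 bases before its start. TGANTCA, present in 7.71% of promoters, was found in none of the 7. The windows of FOS, IER2 and JUNB held none of these letters, which says nothing of sites outside the window or of sites that differ by a base.

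By the GENCODE annotation of GRCh38, JUNB, IER2 and JUND lie on chromosome 19, at chr19:12791486-12793315, chr19:13150411-13154911 and chr19:18279694-18281622. FOS lies at chr14:75278826-75282230, FOSL1 at chr11:65892049-65900573, KLF6 at chr10:3775996-3785281 and IER3 at chr6:30743199-30744548. EGR1 and JUN span chr5:138465479-138469303 and chr1:58776845-58784048. Values below count exonic UMIs or reads over the whole gene.

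The level of each member over all wells of a group is plotted as a colour map in CPM, the UMIs of a gene per 1000000 UMIs of the group. In WT eHAP1 cells, KLF6, JUND and FOS were at 152, 123 and 105 CPM, and MYC at 0.407. In LAST-seq single HEK293T cells, JUN was at 68.2, FOS at 29.3, MYC at 21.5 and EGR1 at 4.09. For each gene the 7 groups were ordered by CPM, and the ranges of single wells were compared between neighbours. Of the 60 pairs of neighbours in these orders, 59 had overlapping ranges over wells, and the exception was JUN, whose CEL-seq2 lysate wells all lay above the LAST-seq single cells. Ranges from the lowest to the highest well overlap readily, as many reach 0, so they do not tell how firm the order of group levels is.

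**Figure D1:**
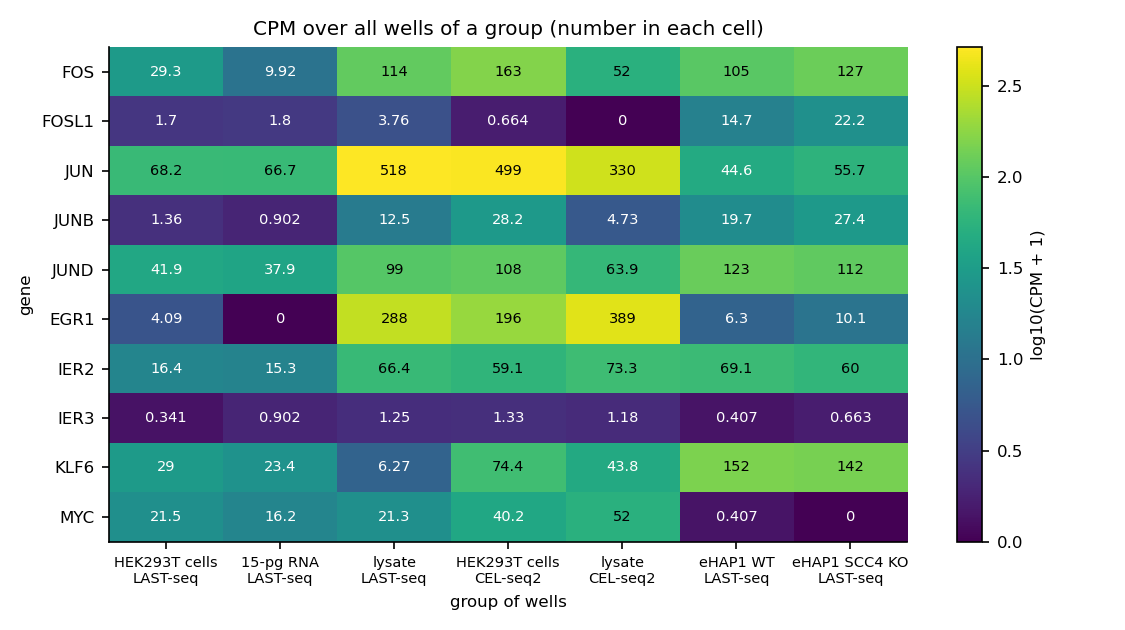
CPM of the 10 genes (rows) over all wells of 7 groups (columns), with the value printed in each field and the colour on a log10 scale after adding 1. EGR1 was at 288 and 389 in the 2 kinds of lysate and at 4.09 in LAST-seq single HEK293T cells, and MYC was near 0 in both eHAP1 groups.

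The first comparison asks whether the members were counted alike by LAST-seq and CEL-seq2 in single HEK293T cells. With all 4 libraries JUN was lower by LAST-seq and no member was called higher. The CEL-seq2 libraries themselves lay far apart for FOS, EGR1 and JUNB, and EGR1 was high in replicate 1 alone. JUN, the main partner of FOS in AP-1, stood at 43.5 and 91.4 CPM in replicates 1 and 2 of LAST-seq, against 737 and 246 CPM in those of CEL-seq2. EGR1, a zinc finger factor induced by growth signals, held 4.21 and 3.97 by LAST-seq against 373 and 8.24 by CEL-seq2. FOS held 35.1 and 23.8 by LAST-seq, and its CEL-seq2 levels of 313 and 3.43 lay above and below them.

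EGR1 had between 0 and 2 UMIs per cell in LAST-seq replicate 1, between 0 and 3 in replicate 2, and a median of 0 in both. In CEL-seq2 replicate 1 it had between 20 and 146 UMIs per cell with a median of 40.5, whereas replicate 2 had between 0 and 5 with a median of 0. All cells of CEL-seq2 replicate 1 thus lay above all cells of the other 3 libraries. FOS had between 4 and 104 UMIs per cell with a median of 46.5 in CEL-seq2 replicate 1, and in replicate 2 its 5 UMIs were all in 1 cell. JUN had medians of 5.5 and 13 UMIs per cell by LAST-seq and of 111.5 and 21 by CEL-seq2, with ranges that overlapped. In CEL-seq2 replicate 1, 1 cell held the highest UMIs of FOS with 104, JUNB with 40, EGR1 with 146, IER2 with 46 and KLF6 with 68.

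The remaining members had fewer UMIs than JUN in each of the 4 libraries, KLF6 in LAST-seq replicate 1 excepted. JUND had medians of 5 UMIs per cell in both LAST-seq libraries and of 20 and 9 in the CEL-seq2 libraries, with ranges of 2 to 15 and 3 to 37 UMIs. IER2 had medians of 1.5 and 3 by LAST-seq and of 10.5 and 2.5 by CEL-seq2, so replicate 2 of CEL-seq2 lay at the level of LAST-seq. MYC had medians of 1.5 and 3.5 by LAST-seq and of 2.5 and 9.5 by CEL-seq2, and here replicate 2 was the higher CEL-seq2 library. JUNB was absent from LAST-seq replicate 2, which allows up to 1.99 CPM (3 UMIs of the library), and had 4 UMIs in replicate 1. FOSL1 and IER3 held between 0 and 3 UMIs in every HEK293T library with UMIs, too few to set the groups apart.

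**Figure D2:**
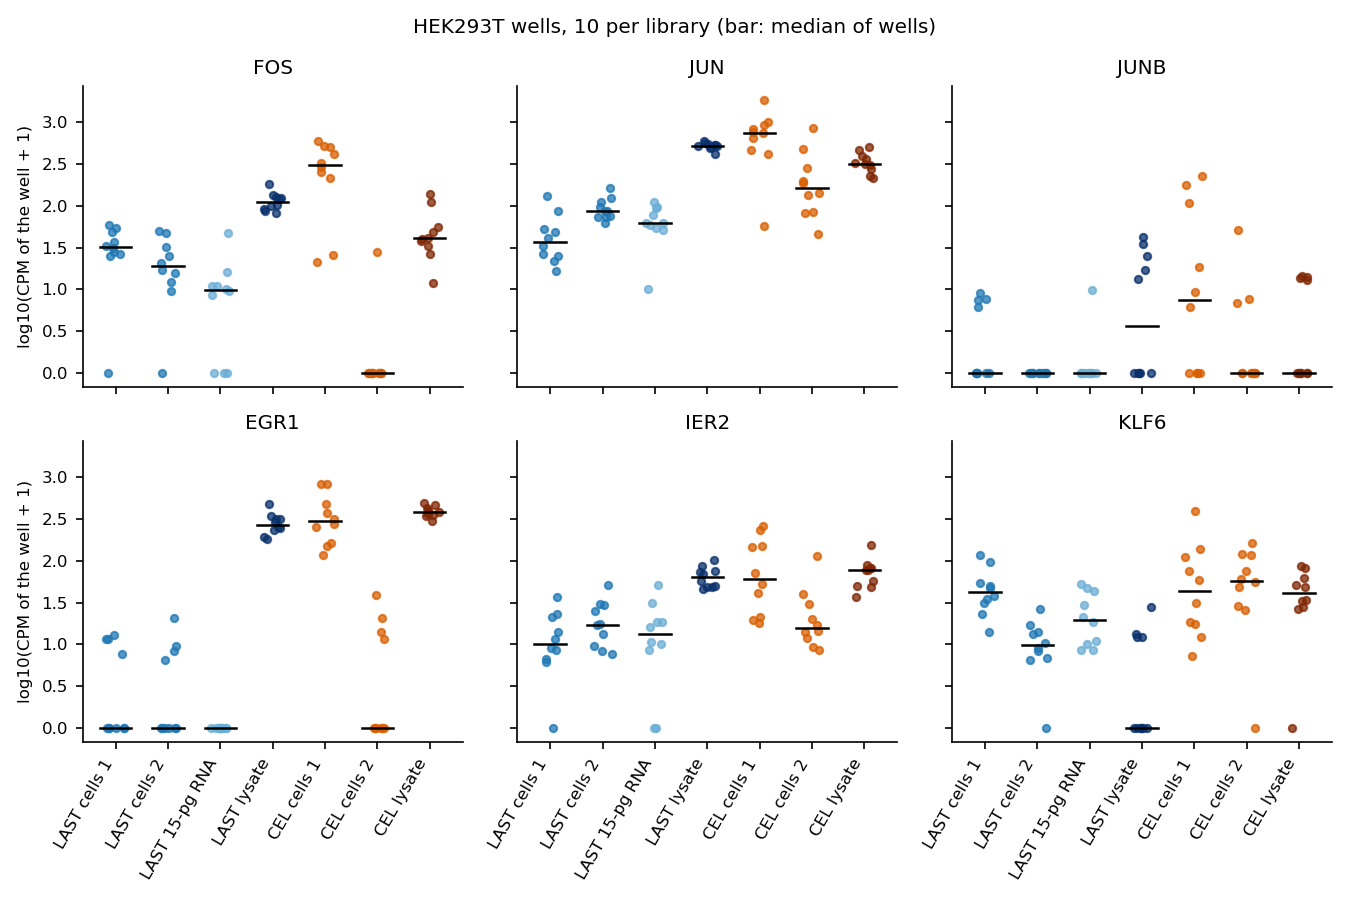
Each point is a well of HEK293T cells, 15-pg RNA or lysate, by library on the x axis and by log10 of the CPM of the well plus 1 on the y axis, and bars mark the median of 10 wells. For EGR1 the wells of both lysates and of CEL-seq2 replicate 1 form a band that lies above all wells of the other 4 libraries.

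On the UMIs summed per library, edgeR's quasi-likelihood test with Benjamini-Hochberg adjustment called 2963 of 11421 genes. They were 11.2% of genes higher and 14.8% lower in LAST-seq. Of the 10 members, 7 passed the filter on low counts, none was called higher and 2 were called lower. JUN was lower by 2.51 on the log2 scale with an SE of 0.49 (edgeR adjusted p = 0.00642), in both LAST-seq libraries against both CEL-seq2 libraries. In lysate, with 1 library per assay and no test, JUN had the other order, at 518 CPM by LAST-seq and 330 by CEL-seq2. EGR1 had a log2 difference of -5.10 with an SE of 1.33 (edgeR adjusted p = 0.0203), but it passed the filter only through the CEL-seq2 libraries and was not tested once either of them was left out. CEL-seq2 replicate 2 was at 8.24 CPM, close to the 4.21 and 3.97 of LAST-seq, so the EGR1 call rests on CEL-seq2 replicate 1 and is no support for a difference between the assays. The samples are separate libraries and nothing states that they came from separate cultures, so these p-values measure the spread between libraries.

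The other 5 members did not pass the test. FOS differed by -2.01 with an SE of 1.14 (edgeR adjusted p = 0.227), and without CEL-seq2 replicate 1 its difference was 3.16. FOS then passed the filter only through the LAST-seq libraries, with 50 and 36 UMIs against 5 in CEL-seq2 replicate 2. That value is thus no support for a difference between the assays. Without CEL-seq2 replicate 2 the FOS difference was -3.12. IER2, a nuclear protein induced early after serum, differed by -1.47 with an SE of 0.59, and JUND, the JUN family member that most cells express without a stimulus, by -1.01 with an SE of 0.35. Their edgeR adjusted p-values were 0.0981 and 0.0574, and both fell under 0.05 without CEL-seq2 replicate 2. KLF6, a zinc finger factor of the Krüppel-like family, and MYC differed by -0.98 and -0.65, with SEs of 0.59 and 0.52. FOSL1, IER3 and JUNB did not pass the filter.

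Leaving out a LAST-seq library also moved calls. The edgeR adjusted p of JUN was 0.0800 without LAST-seq replicate 1, and that of EGR1 was 0.127 and 0.140 without replicate 1 or 2. KLF6 had a log2 difference of -2.58 (edgeR adjusted p = 0.0292) without LAST-seq replicate 1 and of -0.20 (edgeR adjusted p = 0.759) without replicate 2. The lone library of an arm is then assumed to vary like the other arm. The spike-in mix differed between the replicates of each assay, so mix and library cannot be told apart.

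Related genes were described from lists. Of 35 other immediate-early genes, 18 were tested and 2 were higher and 2 lower. ATF3, a stress-induced AP-1 partner, had a log2 difference of -2.69 (edgeR adjusted p = 0.0146) and HES1, a repressor downstream of Notch, of -2.15 (edgeR adjusted p = 0.0422). ATF3 passed the filter only through the CEL-seq2 libraries and was not tested once either of them was left out. Its call is thus no support for a difference between the assays. HES1 differed by -0.88 without CEL-seq2 replicate 1 and by -2.98 without CEL-seq2 replicate 2. The inhibitors of differentiation ID3 and ID1 were higher by 2.32 and 1.87. The list's median log2 difference was 0.24, against -0.06 over all genes tested and -1.47 over the 7 members. The value of the members takes in EGR1, which passed the filter only through the CEL-seq2 libraries. It also takes in FOS, whose sign turned with the CEL-seq2 library left out. None of the 7 MAP kinase phosphatases and feedback inhibitors tested and none of the 5 AP-1 partners was called. Of the MYC family and MAX network, 8 were tested, and MAX, the partner of MYC, was higher by 1.11 while MGA had -2.12. Of 24 MYC target genes, 5 were higher and 3 lower, among them RRP9, RRS1 and BOP1, which act in ribosome production, at 3.05, 1.83 and 1.61, and TFAP4 at -2.30.

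The gap between the 2 CEL-seq2 libraries was described by CPM with a threshold of 2-fold and exact Poisson intervals, which cover counting error only. Replicate 1 was higher for 5 of the 8 members measured and lower for MYC, where 11.6% of 11564 genes were higher and 6.92% lower. The ratio for FOS was 91.2 with an exact 95% interval of 38.8 to 282, from 487 and 5 UMIs. EGR1 had 579 and 12 UMIs and a ratio of 45.2 with an interval of 25.7 to 88.0. JUNB, an AP-1 subunit that can oppose JUN, had 79 and 6 UMIs, and 2 cells of replicate 1 held 40 and 24 of the 79. IER2 was 4.12-fold higher, JUN higher by 1.58 on the log2 scale, and JUND and KLF6 stayed below 2-fold at 1.86 and 1.32.

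The same 5 members were higher and MYC lower when the well with the highest CPM of each gene was left out of replicate 1. KLF6 then had a log2 difference of -0.48, against 0.40 with all wells. FOS and JUNB passed the filter on low values only through replicate 1. MYC held 38 UMIs in replicate 1 and 83 in replicate 2, a ratio of 0.429 with an interval of 0.284 to 0.637. Of 19 other immediate-early genes tested, 8 were higher in replicate 1 and none lower. FOSB, a close relative of FOS, had 440 and 3 UMIs, KLF4 66 and 3, CCN1 81 and 15, and HES1 137 and 26. DUSP1, a phosphatase that shuts off MAP kinases, had 169 and 6 UMIs, and DUSP2 had 20 and 8. The feedback inhibitor SPRY2 went the other way, with 6 and 15. FOSB, KLF4, DUSP1 and DUSP2 passed the filter on low values only through replicate 1, and SPRY2 only through replicate 2. Their calls thus add no separate support. Of 24 genes of the MAP kinase cascade 3 were higher, CREB1, ARAF and MAP2K4, as were 3 of 9 in the MYC and MAX network, MXD3, MLXIP and MXD1. None of 5 AP-1 partners was called, and of 24 MYC targets MYBBP1A was lower at -1.48. With TMM scaling, where 757 genes were higher and 1147 lower in place of 1337 and 800, the same members were called.

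The 2 LAST-seq libraries were closer for FOS, EGR1 and MYC. Of 6 members measured, KLF6 was higher in replicate 1, with 70 and 15 UMIs and a ratio of 4.94 with an interval of 2.80 to 9.30. Cells of replicate 1 held between 2 and 22 UMIs of KLF6, and those of replicate 2 between 0 and 3. JUN was lower in replicate 1, with 62 and 138 UMIs, a log2 difference of -1.06 that was -0.96 with TMM scaling. Among 9702 genes, 6.68% were higher and 11.0% lower. Of 15 other immediate-early genes 1 was higher, CCN1 with 20 and 1 UMIs, and MCL1, ID1 and FOSL2 were lower. CCN1 passed the filter on low values only through replicate 1.

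The second comparison sets lysate and purified RNA against single cells within LAST-seq, with 1 library of each input and no test. EGR1, JUN, IER2, FOS and JUND were higher in LAST-seq lysate than in sorted cells, KLF6 was lower and MYC was below 2-fold. EGR1 had between 12 and 39 UMIs per lysate well with a median of 21.5, so every lysate well lay above every single cell. Its level was 288 CPM against 4.09, a ratio of 70.5 with an interval of 39.6 to 138. JUN had between 32 and 49 UMIs per lysate well, above the highest single cell with 19, and a ratio of 7.59 with an interval of 6.40 to 9.04.

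IER2, FOS and JUND were 4.06-fold, 3.89-fold and 2.36-fold higher in lysate. FOS was between 80.0 and 180 CPM per lysate well, above the 57.3 and 49.6 of the highest single cells of replicates 1 and 2. KLF6 was lower, with 5 UMIs over 10 lysate wells against 85 over 20 cells, a ratio of 0.216 with an interval of 0.0685 to 0.525. This call rests on LAST-seq replicate 1, since KLF6 differed by -2.97 on the log2 scale from replicate 1 and by -0.67, less than 2-fold, from replicate 2. MYC was at 21.3 in lysate and 21.5 in cells, and its ratio of 0.992 had an interval of 0.544 to 1.72. Of the 7 members measured, 5 were thus higher and 1 lower past 2-fold, where 6.68% of 8819 genes were higher and 22.0% lower. The median log2 difference of all genes was -0.35 and became -0.16 with TMM scaling, under which 823 genes were higher and 1483 lower in place of 589 and 1943, and the members called were the same. EGR1 and KLF6 passed the filter on low values only through the group where they were high. Mitochondrially encoded genes took a larger share in lysate, as given above, and their part in these ratios was not tested.

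Among 16 other immediate-early genes measured, 7 were higher in lysate and 4 lower. FOSB had 54 UMIs in lysate and 0 in the cells, MAFF had 23 and 1, and ATF3 had 38 and 18, a CPM ratio of 7.76. NFKBIA, an inhibitor of NF-kappaB, had 0 UMIs in lysate against 65 in cells. FOSB, MAFF, ATF3 and NFKBIA passed the filter on low values only through the group where they were high, so their calls add no separate support. No cascade gene was higher. Of 23 measured 9 were lower, among them CREB1, MAPK14 and NRAS at -2.28, -2.07 and -1.76 on the log2 scale. The AP-1 partners BATF3, MAFG and ATF7 had log2 differences of -2.64, -1.39 and -1.14. In the MYC and MAX network 3 of 8 were lower, among them MAX at -2.13. Of 23 MYC targets 6 were lower, among them RRS1 at -2.05 and NCL, which encodes nucleolin, at -1.34. SPRED2, a feedback inhibitor, was lower at -1.69.

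In 15-pg RNA, EGR1 was not detected, which allows up to 2.71 CPM. FOS held 9.92 CPM against 29.3 in cells, a ratio of 0.339 with an interval of 0.163 to 0.636. It was the only one of 6 members measured to pass 2-fold, where 8.05% of 9377 genes were higher and 10.4% lower. JUN, JUND, IER2, KLF6 and MYC had ratios between 0.756 and 0.979, and all 5 intervals held 1. Of 14 other immediate-early genes, BTG2, an antiproliferative gene, was higher at 1.62 on the log2 scale. Of 5 AP-1 partners ATF7 was higher and MAFG lower, and 3 of 8 in the MYC and MAX network were lower. Of 24 MYC targets TFAP4 was higher at 3.15 and 3 were lower, and none of 3 feedback inhibitors was called.

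In CEL-seq2 lysate EGR1 had between 25 and 45 UMIs per well and stood at 389 CPM, above 373 and 8.24 in the 2 libraries of single cells. JUN was at 330 in lysate and at 737 and 246 in cells, and FOS at 52.0 in lysate and at 313 and 3.43 in cells. Lysate thus lay between the CEL-seq2 libraries of single cells for FOS, JUN, JUNB, IER2 and MYC. JUND was at 63.9 in CEL-seq2 lysate, below the 140 and 74.9 of cells, while LAST-seq lysate with 99.0 lay above the 38.6 and 45.0 of cells. The exact intervals of 63.9 and 74.9 overlapped.

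SMART-seq counted reads, and PCR reads are not independent molecules. The 6 single cells held between 2 and 218 EGR1 reads with a median of 133, and between 0 and 216 FOS reads with a median of 65. JUNB had reads in 1 of the 6 cells, with 135, and KLF6 in 1 cell, with 18. MYC had between 1 and 335 reads with a median of 77.5. In SMART-seq lysate, EGR1 was at 47.6 CPM of reads over 26 wells and at 14.3 without the 6 wells that match a single cell. FOS held 681 reads over all wells and 151 without them. KLF6 went from 25.1 to 31.5, since it had reads in 1 of the 6 matching wells and in all of the other 10 wells of replicate 2. MYC was at 136 with the matching wells and at 132 without them.

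The third comparison sets WT eHAP1 cells beside LAST-seq single HEK293T cells, which differ in the line, in the sorting gate and in their batch. Of 8 members measured, 6 were higher in eHAP1 and MYC was lower, where 15.0% of 9729 genes were higher and 21.6% lower. JUNB held 387 UMIs against 4, a ratio of 14.4 with an interval of 5.59 to 53.2. FOSL1, a FOS family member often raised by sustained MAP kinase signals, held 289 against 5, a ratio of 8.62 with an interval of 3.65 to 26.8. KLF6, IER2, FOS and JUND had ratios of 5.24, 4.22, 3.57 and 2.92. The ratio of KLF6 pools HEK293T libraries that lay far apart, with 152 CPM in eHAP1 against 49.1 and 9.94 in replicates 1 and 2. JUN was below 2-fold, with a ratio of 0.654 and an interval of 0.560 to 0.767, and its 44.6 CPM in eHAP1 stood against 43.5 and 91.4 in these replicates. Of 15 other immediate-early genes 2 were higher and 4 lower. FOSB had 1009 UMIs in eHAP1 and 0 in the HEK293T cells, RHOB had 0 and 50, KLF10 was at -2.30 on the log2 scale and HES1 at 2.24. The phosphatase DUSP1 and the inhibitor SPRED1 were higher, with 669 and 25 UMIs and 424 and 19 UMIs, of 4 measured. Of 23 cascade genes 1 was higher and 6 lower, and of 5 AP-1 partners MAFG was higher and ATF4 lower. In the MYC and MAX network 2 of 8 were lower, MXD4 at -2.53 and MLX at -1.58, and of 24 MYC targets 2 were higher and 7 lower.

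MYC stood apart from the other members. It held 8 UMIs in 148 WT eHAP1 cells, 4 in each batch, against 63 in 20 HEK293T cells, a ratio of 0.0189 with an interval of 0.00784 to 0.0397. Whether the eHAP1 tables were filtered or annotated like the HEK293T tables is not given in the sources used here, and its part in this ratio was not tested. With TMM scaling 1781 genes were higher and 1507 lower in place of 1460 and 2100, and the same members were called. JUNB, FOSL1, FOSB and SPRED1 passed the filter on low values only through eHAP1, and MYC and RHOB only through HEK293T.

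The fourth comparison is that of SCC4 KO and WT eHAP1 cells by batch, and it carries the check of the knockout. MAU2 fell from 326 to 59 UMIs in batch 1 and from 507 to 169 in batch 2, ratios of 0.207 and 0.351 with intervals of 0.154 to 0.274 and 0.293 to 0.419. UMIs at the 3′ end can still be read from an edited transcript. No member was past 2-fold in both batches, of 8 measured, where 5.96% of 15574 genes were higher and 5.19% lower. The median log2 difference of the 8 was 0.30, against 0.07 over all genes.

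Among AP-1 subunits, FOS, FOSL1, JUN and JUNB were higher in SCC4 KO cells in both batches by less than 2-fold. FOS held 104 and 105 CPM in the WT batches and 129 and 126 in the SCC4 KO batches, a pooled ratio of 1.21 with an interval of 1.14 to 1.29. Per cell, batch 1 ranged from 1 to 51 UMIs in WT and from 3 to 22 in SCC4 KO, so the genotypes overlapped widely. FOSL1 held 96 and 193 UMIs in WT against 142 and 261, a ratio of 1.51 with an interval of 1.30 to 1.77. JUNB held 19.5 and 19.8 CPM against 25.8 and 28.3, and JUN 43.0 and 45.5 against 60.5 and 53.1. Their ratios were 1.39 with an interval of 1.22 to 1.60 and 1.25 with an interval of 1.14 to 1.37. JUND went the other way, with 122 and 123 CPM in WT and 113 and 111 in SCC4 KO, a ratio of 0.911 with an interval of 0.859 to 0.967. Per cell, medians of FOS were 92.7 and 87.8 CPM in WT and 131 and 119 in SCC4 KO, and those of JUNB 12.0 and 17.7 against 24.0 and 27.4. Single cells of every set reached from 0 CPM of JUNB to at least 67.9, so no genotype stood apart.

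EGR1 had the largest ratio of the members tested, at 1.60 with an interval of 1.27 to 2.03. It held 6.51 and 6.18 CPM in WT and 10.4 and 9.93 in SCC4 KO. Cells with at least 1 EGR1 UMI were 31 of 73 and 33 of 75 in WT, and 41 of 77 and 48 of 76 in SCC4 KO. The median totals were 89978 and 143882 UMIs per WT cell and 81789 and 152433 per SCC4 KO cell. IER2 was at 70.1 and 68.4 in WT against 61.1 and 59.3, a ratio of 0.868 with an interval of 0.801 to 0.941. KLF6 was at 148 and 154 against 146 and 140, a ratio of 0.936 with an interval of 0.888 to 0.987.

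IER3, an early gene linked to cell survival, held 8 UMIs in WT and 12 in SCC4 KO cells, too few to be measured. MYC had 0 UMIs in 153 SCC4 KO cells. The exact 95% upper limit of the ratio of MYC in SCC4 KO over WT was 0.636 over both batches, and 1.74 and 1.60 in batches 1 and 2 alone, so neither batch shows a difference by itself. With no filter on low values MYC was called lower in both batches, a call that rests on 8 molecules from 7 cells.

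**Figure D3:**
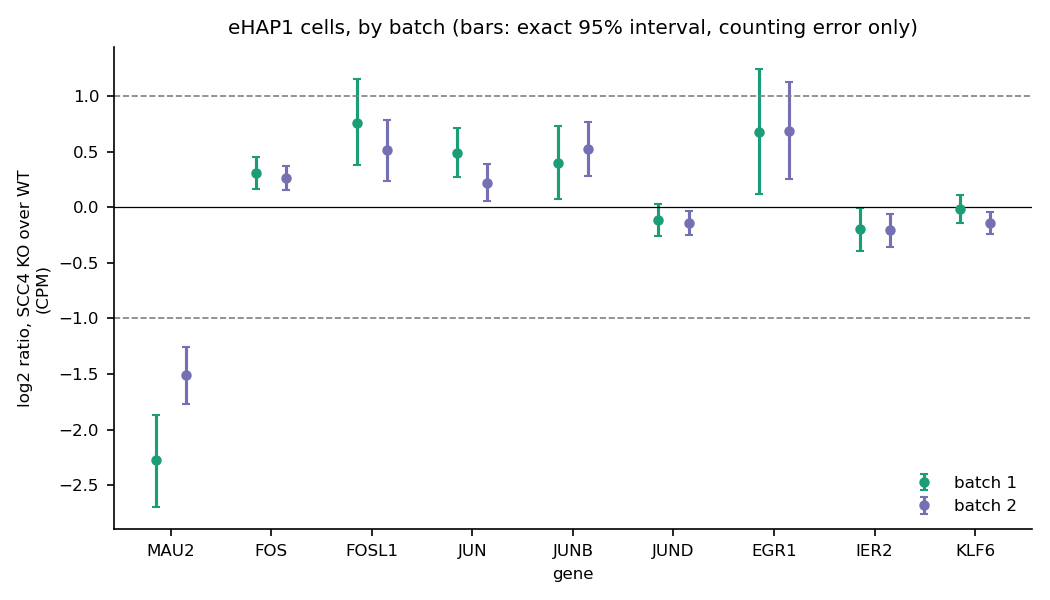
Points give the log2 ratio of CPM in SCC4 KO over WT eHAP1 cells by batch for MAU2 and 8 members, bars the exact 95% interval of counting error, and dashed lines 2-fold. MAU2 lies below the lower line in both batches, at ratios of 0.207 and 0.351, and every member lies between the lines.

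The intervals cover counting error and not the variation between clones or cultures. Between the batches of a genotype, 17.7% of genes in WT and 15.6% in SCC4 KO were past 2-fold, and none of the 8 members was. Markers moved with genotype as well. The HEK293T markers summed to 22.5 and 24.8 CPM in the WT batches with 2 of 4 detected, and to 60.5 and 58.4 in the SCC4 KO batches with 4 of 4 detected, where NEFL and LHX1 were called higher. Blood cell markers were at 42.9 and 39.3 CPM in the WT batches, with HBA1 alone past the filter and 2 of 5 detected, and at 15.7 and 15.8 in the SCC4 KO batches, and fibroblast markers at 3.66 and 4.39 with 1 of 4 detected against 12.1 and 16.4 with 2 of 4 detected. Their part in the differences of the members was not tested.

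The other genes of the pathway are read against the 5.96% of all genes called higher and 5.19% called lower. Of 27 other immediate-early genes measured, 1 was called higher, IER5L, which rested on 0 and 9 UMIs in the WT batches and 1 and 28 in the SCC4 KO batches. Their median log2 difference was 0.28. Of 9 phosphatases and feedback inhibitors, 2 were lower. SPRY1, an inhibitor of receptor signals to the MAP kinases, held 7.19 and 13.6 CPM in WT and 1.71 and 2.83 in SCC4 KO. ERRFI1, an inhibitor of the EGF receptor, held 81 and 10 UMIs in WT and 14 and 3 in SCC4 KO, so it differed more between batches than between genotypes. None of the 24 cascade genes, 6 AP-1 partners and 25 MYC targets measured was called. In the MYC and MAX network, MYCL was higher by 1.05 on the log2 scale, a call that was lost with TMM scaling.

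The spread of the members over cells was described after thinning each cell to 50000 UMIs, which kept 145 WT and 152 SCC4 KO cells. The Fano factor, the variance over the mean, is 1 where molecules are sampled at random from equal cells. The excess, the Fano factor minus 1 over the mean, is the squared variation beyond that, and it sets genes of different levels side by side. In WT cells FOS had a mean of 5.15 UMIs per cell, a Fano factor of 1.81 and an excess of 0.157, above that of 90.1% of 5786 genes. JUN and KLF6 had an excess of 0.129 and 0.102, above 86.0% and 80.2% of genes. JUND, with a higher mean of 6.08, had a Fano factor of 0.995, and its excess lay above that of 9.82% of genes. IER2 had 0.0175, below the median of all genes of 0.0309.

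In SCC4 KO cells JUN had an excess of 0.123, JUNB of 0.0775, KLF6 of 0.0716, FOS of 0.0699, JUND of 0.0375 and IER2 of 0.022. FOSL1 had 0.205, above 93.0% of genes, and was not ranked in WT cells, where its mean and that of JUNB were below 1 UMI. The value of JUN was 0.0242 without the cell of its highest value. The excess of FOS was 0.124 and 0.192 in the WT batches and 0.0636 and 0.0777 in the SCC4 KO batches. That of JUN was 0.197 and 0.0732 in the WT batches. Whether the spread differs between genotypes was not tested.

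**Figure D4:**
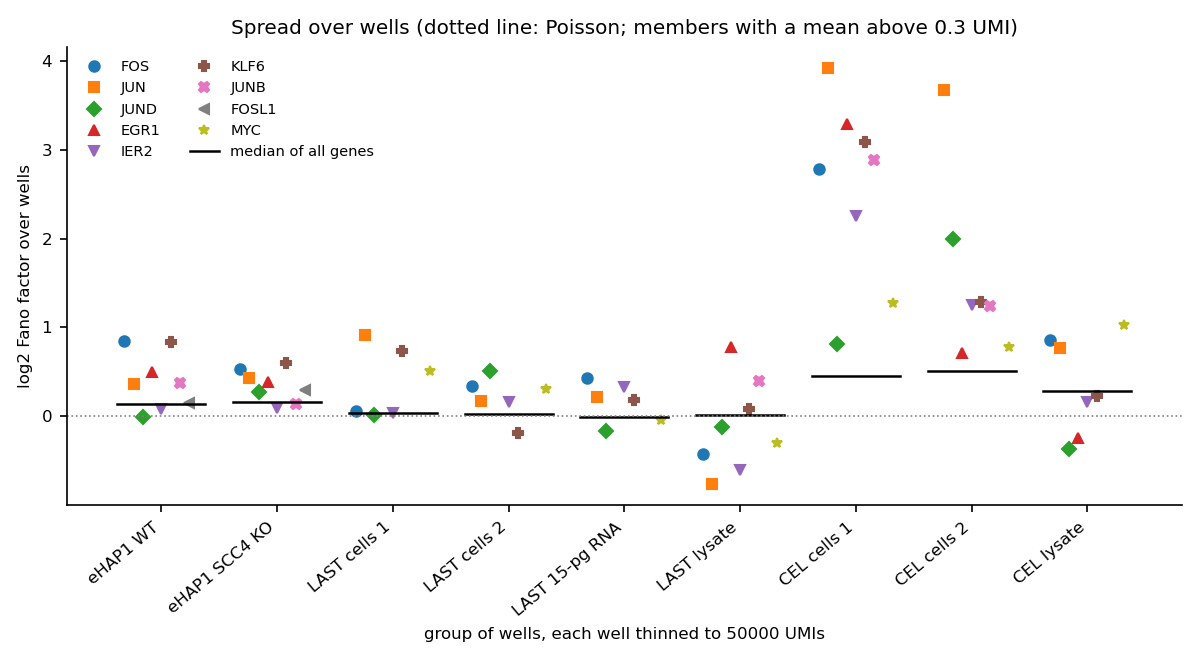
log2 of the Fano factor over wells thinned to 50000 UMIs, by group on the x axis, for members with a mean above 0.3 UMI, with a black bar for the median of all genes. The members scatter most in the CEL-seq2 single cells, where JUN reaches Fano factors of 15.1 and 12.7, and JUN in LAST-seq lysate and EGR1 in CEL-seq2 lysate lie below the bar.

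Low members were read through their cells without a UMI. After thinning, 75.1% of WT cells had no EGR1 UMI, where a Poisson distribution of its mean of 0.337 gives 71.4%, and in SCC4 KO cells 64.2% had none against 61.0%. For JUNB the shares were 41.8% and 36.8% in WT, for JUN 14.8% and 11.1%, and for FOS 1.21% and 0.581%. The 15 highest of 148 WT cells, ranked by CPM of each gene, held 49.7% of all EGR1 UMIs after scaling, 28.3% for JUNB, 21.8% for FOS and 15.3% for JUND. In SCC4 KO, the 16 highest of 153 cells held 37.4% for EGR1, 24.3% for JUNB, 18.5% for FOS and 17.7% for JUND. A low mean alone raises this share.

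**Figure D5:**
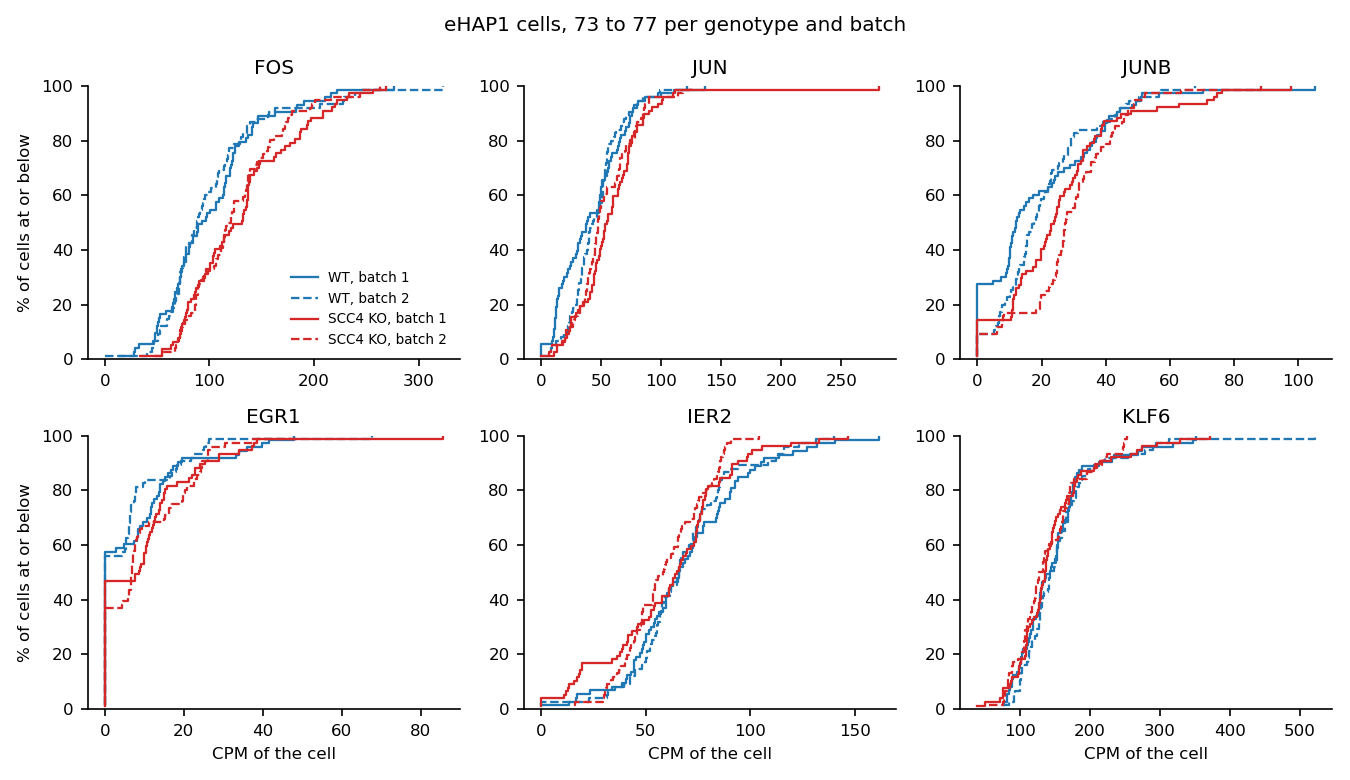
Cumulative percent of eHAP1 cells (y axis) by CPM of the cell (x axis) for 6 members, with WT in blue, SCC4 KO in red, batch 1 as solid and batch 2 as dashed lines. EGR1 was at 0 in more than 35% of cells of each set, and the FOS curves of SCC4 KO lie to the right of those of WT over most of their course.

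The Fano factor was higher in both CEL-seq2 libraries of single cells than in CEL-seq2 lysate for JUN, JUND, EGR1, IER2 and KLF6, at different means. In CEL-seq2 replicate 1, the Fano factor of FOS was 6.89, of JUN 15.1, of EGR1 9.73, of JUNB 7.36, of KLF6 8.49 and of IER2 4.76, where the median of all genes was 1.37. JUND was at 1.75. At a given excess the Fano factor rises with the mean, so a gap to this median is not a gap in excess. KLF6 was at 2.79 without its highest cell. In CEL-seq2 replicate 2, JUN was at 12.7 and JUND at 3.99. In CEL-seq2 lysate EGR1 at a mean of 19.5 UMIs had a Fano factor of 0.843 and JUN of 1.71. In LAST-seq lysate JUN was at 0.590, FOS at 0.748 and EGR1 at 1.72. In LAST-seq single cells JUN was at 1.89 and 1.13 and FOS at 1.05 and 1.27, at means of 1.11 to 4.72 UMIs.

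Spearman's rho between members over the cells of a set, each thinned to 50000 UMIs, was described for pairs with enough UMIs. It had medians of -0.0243, -0.0019, -0.0003 and 0.0049 in the 4 sets of 72 to 76 cells, with extremes of -0.306 and 0.233. It was above 0 in 5 and 10 of 21 pairs in the WT batches, and in 14 of 28 and 12 of 21 pairs in the SCC4 KO batches. At these UMI counts no relation was read from them. The genes most like the mean rank of FOS, JUN, JUNB, EGR1, IER2 and IER3 over WT cells, of 5474 ranked, were MPST, ITGAE, RPL13P12, RPL32P18 and DYNLRB1. The lower of their 2 rho values in the WT batches lay between 0.205 and 0.241. These genes were picked as the highest of 5474 on the same WT cells, so selection alone can give high values. Over pairs drawn from a set of genes, 95% of rho values lay between -0.232 and 0.232 in WT batch 1. In WT batch 2 that range was -0.231 to 0.229. In the SCC4 KO batches the 5 named genes had values between -0.387 and 0.0723. No relation of these genes to the members was therefore read from the ranking. RPL13P12 and RPL32P18 are pseudogenes that share sequence with their parent genes, so their UMIs are uncertain.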

How the data were processed

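The values were the counts of UMIs per gene and well deposited by the authors for LAST-seq and CEL-seq2, and the counts of reads for SMART-seq. The authors demultiplexed reads with bcl2fastq 2.20, aligned them to GRCh38 with spike-in sequences, subsampled HEK293T libraries, counted exonic reads with zUMIs and collapsed UMIs, without normalization. Wells with few exonic reads were left out by the authors. Whether the deposited eHAP1 counts precede the authors' batch removal is not stated. Spike-in rows were left out, Ensembl IDs were matched to GENCODE symbols, and a gene absent from a table was read as 0.

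The members and lists were chosen with earlier results of these data known. LAST-seq and CEL-seq2 libraries were compared with edgeR 4.0.16 (quasi-likelihood, TMM, Benjamini-Hochberg, at least 10 UMIs in 2 libraries, adjusted p under 0.05), with DESeq2 1.42.0 as an alternative. On simulated counts for this comparison over 11421 genes, 176 of 200 genes changed by 3 on the log2 scale were recovered with 4 false calls. The changed genes left out those of the lowest levels, and no shift shared by genes was set between libraries of an assay. These rates are therefore not rates for the members. Other comparisons set CPM ratios, after adding 0.5 UMI to each sum, against 2-fold, met in each batch for eHAP1. Genes needed a mean of 0.1 UMI per cell between genotypes, and of 1 UMI per well over both groups in pairs that hold HEK293T. Intervals are exact at the 95% level and, like the limit of 3 UMIs for a count of 0, cover counting error only. Other genes named are at most 4 per list and comparison, the largest changes first, and the 5 most alike in WT cells. Some results for other listed genes are not reported here. Alternatives are given in the closing section. R 4.3.3, Python 3.11.15, numpy 2.4.6, scipy 1.17.1 and pandas 2.3.3 were used.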

Additional observations from a re-analysis of the deposited data

Results flagged for a closer look

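JUND had opposite signs between lysate and single cells in the 2 assays. In LAST-seq, lysate was higher than both libraries of single cells, by 1.36 and 1.14 on the log2 scale. In CEL-seq2, lysate lay below both, with log2 differences of -1.13 and -0.23. With 1 lysate library per assay the difference was not tested.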

How the results depend on the processing

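Between LAST-seq and CEL-seq2, 2963 genes were called, and 1428 to 1925 when a library was left out. DESeq2 called 2451, scaling to total UMIs 3043 (738 higher and 2305 lower in LAST-seq) and no filter 3686. Over the 47 settings of the members, 34 kept direction and call, 3 lost and 8 gained a call, and 2 reversed. With a library left out, FOS lay between -3.12 and 3.16 and MYC between -1.33 and 0.0892. The values 3.16 and 0.0892 were those without CEL-seq2 replicates 1 and 2. At 3.16, FOS passed the filter only through the LAST-seq libraries. Between SCC4 KO and WT, 1737 genes were past 2-fold in both batches, 6742 without the filter on low values, and 3772 to 4038 with batch 2 or batch 1 left out, where a gene needs to pass in 1 batch. All 90 settings of the members kept their sign. In 2 of them the value left the interval of counting error, JUN at 0.491 and KLF6 at -0.016 on the log2 scale, both without batch 2. The excess spread of FOS in WT lay between 0.124 and 0.192 over its settings. In SCC4 KO, leaving out the cell of the highest value moved the excess of FOSL1 from 0.205 to 0.158. It moved that of JUNB from 0.0775 to 0.0490 and that of JUN from 0.123 to 0.0242. EGR1 in SMART-seq lysate moved from 47.6 to 14.3 CPM without the 6 matching wells, an alternative chosen after seeing the data, as were TMM on other HEK293T pairs, leaving out the highest well and leaving out the 2 deepest WT cells. FOSL1 and IER3 in HEK293T, and IER3 and MYC in eHAP1, held too few UMIs for a comparison to be firm.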
